A study of Mus musculus with 11 samples.

Results

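Periportal spots were compared between livers injured with APAP (acetaminophen) and uninjured livers in spatial transcriptomes of mouse liver. Of 11 sections, 3 were uninjured (0 h, numbered 2, 3 and 4). The other 8 were injured, with 2 sections at 24 h and 2 at 36 h, both lettered A and B, and 4 sections lettered A to D at 48 h. All were snap-frozen liver, cut at 10 µm and placed on Visium slides, where each spot captures polyadenylated RNA from several neighbouring cells. The labels give no strain, sex, age or dose. The study's methods name C57BL/6JCrl among its mouse lines without tying it to this assay, use young adult males unless stated otherwise, and fast the animals before an intraperitoneal injection of APAP. They also give 1 mouse per time point for the spatial assay, so n counts sections and a p value measures section-to-section spread alone. Mouse, slide and time cannot be told apart.

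Portal spots were chosen by expression. In each section, tissue spots were kept when 800 or more genes were detected and mitochondrial genes gave no more than 20% of unique molecular identifiers (UMIs). They were ranked by the UMIs per 10000 of Cyp2f2, Hal, Sds and Hsd17b13 together, and the top 20% were taken. This gave 5027 portal spots among 25136 passing spots, and left 20109 remaining spots. Uninjured sections held 1391 of the portal spots, and the 24 h, 36 h and 48 h sections 834, 801 and 2001. UMIs were summed over the portal spots of a section, and levels below are CPM, counts per 1000000 UMIs of that sum, after TMM scaling, a scaling that assumes most genes do not change. Summed levels of gene lists, and levels set against the remaining spots, used TMM scaling of portal and remaining sums together. They cover the members tested in that joint fit and are on another scale than single genes in portal spots. Values are listed by section number or letter within each time. The map of portal spots shows where they lay.

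**Figure D1:**
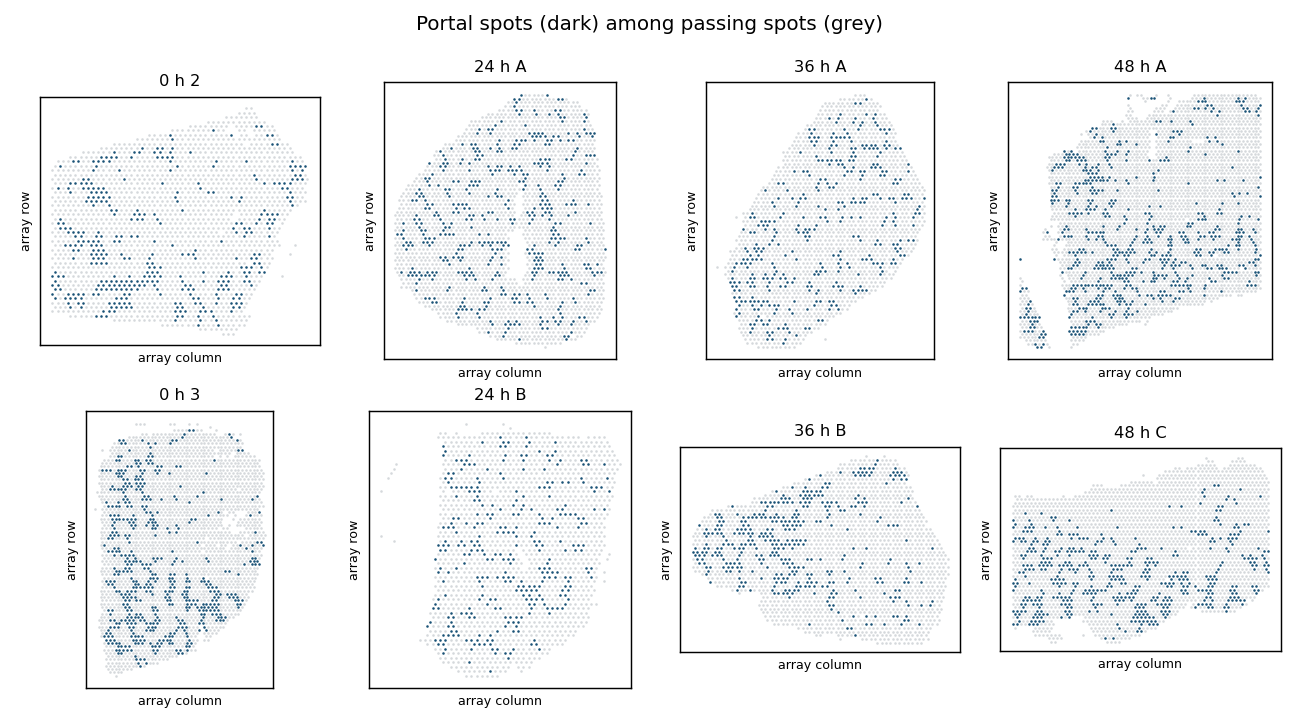
Position of the portal spots (dark) among all passing spots (grey) on the array, by array column and row, in 8 of the 11 sections. Of the array neighbours of a portal spot, 35.3% to 50.9% per section were portal spots too, against about 20% of all spots.

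The liver lobule is organised between the portal tract, where blood enters, and the central vein, where it leaves. Periportal hepatocytes are known for urea synthesis, amino acid breakdown and glucose production, and pericentral hepatocytes for glutamine synthesis and for the cytochrome P450 enzymes that turn APAP into its toxic metabolite. APAP kills pericentral hepatocytes first, so that the periportal zone holds most of the hepatocytes that survive.

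The 4 genes that chose the spots are described without a test, as CPM of the portal sum without TMM scaling. Cyp2f2, a periportal cytochrome P450, read 1735, 1772 and 1933 CPM in the portal spots at 0 h, 477 and 317 at 24 h, 975 and 533 at 36 h, and 863, 952, 740 and 1214 at 48 h. Hal, which opens the breakdown of histidine, read 487, 501 and 467 CPM at 0 h, 125 and 146 at 24 h, 418 and 371 at 36 h, and 513, 555, 397 and 356 at 48 h. Every injured section thus lay below the 0 h sections for Cyp2f2, whereas Hal overlapped with 0 h at 48 h.

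Sds, which deaminates serine, ranged from 459 to 477 CPM at 0 h and from 267 to 2490 CPM in injured sections, the highest in 36 h section B. Hsd17b13, a lipid droplet enzyme, ranged from 545 to 606 CPM at 0 h and from 860 to 1299 CPM in injured sections, above 0 h in all 8. Cyp2f2 supplied 52.8% to 56.0% of the selecting UMIs at 0 h and 12.4% to 43.3% after injury, and Sds supplied 57.9% of them in 36 h section B. The plot of the 4 genes shows these shifts in what marked a portal spot.

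**Figure D2:**
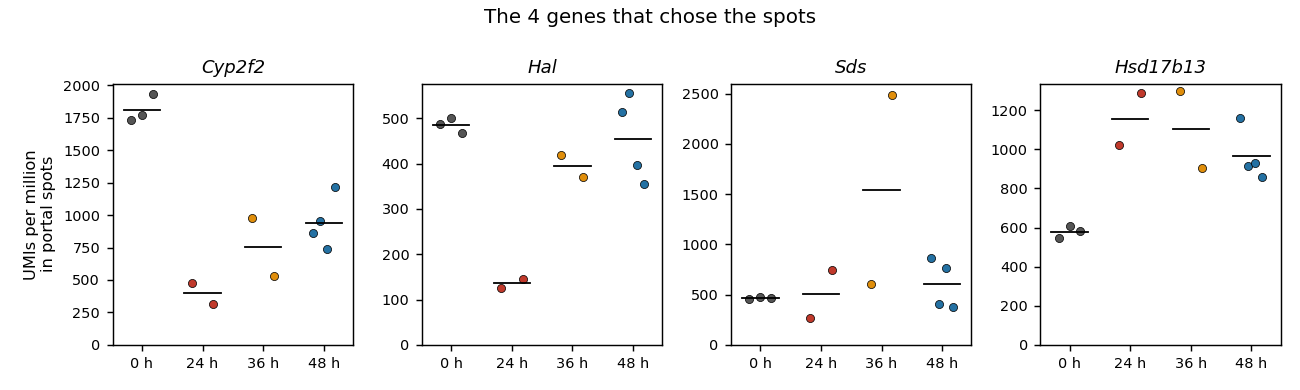
Level of the 4 genes that chose the spots, as CPM in portal spots (linear axis from 0), each point 1 section and the line the group mean. Cyp2f2 lay at 1735 or above in the 3 uninjured sections and at 1214 or below in the 8 injured ones, while Hsd17b13 lay above its 0 h levels in every injured section.

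The score at the threshold of choice was nearly equal on both sides, for example 27.2 UMIs per 10000 for the lowest portal and the highest remaining spot of 0 h section 2, 15.7 and 15.7 in 24 h section A, and 33.2 and 33.2 in 36 h section B. The summed level of the 4 genes was 2.1 to 2.2 times that of the remaining spots at 0 h and 2.3 to 2.9 times in injured sections. When portal spots were chosen instead by 6 other portal genes, 67.6% to 71.8% of the spots chosen here were chosen again at 0 h, and 48.5% to 66.0% in injured sections.

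Portal sums held 6083224 to 17745018 UMIs per section. The median portal spot held 37761, 34168 and 25132 UMIs at 0 h and 14456.5 to 26458 in injured sections. The remaining spots were shallower at 0 h (medians 27282, 18370 and 17867) and close to portal spots after injury (for example 17789 against 17148 in 24 h section A). Mitochondrial genes gave a median of 2.12% to 3.96% of UMIs in portal spots at 0 h and 1.77% to 2.75% in injured ones. Albumin (Alb), the most abundant plasma protein of hepatocytes, chosen for this check after its values were seen, lay between 52416 and 75821 CPM in every section. In spot sums, fewer cells of a type and less RNA per cell cannot be told apart.

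Markers of other cells moved with injury in portal spots, and their part in the results below was not tested. The summed level of 8 macrophage and fibroblast genes stayed under the 95th percentile of 0 h portal spots in 93.1% to 97.7% of portal spots at 0 h, and in 78.2% to 94.9% at 24 h and 36 h. At 48 h the shares were 81.7%, 78.5%, 25.1% and 16.3%. The 48 h sections C and D therefore stand apart, and each count in portal spots against 0 h was also taken in the spots under that limit. Counts of the ratio to the remaining spots were not. The counts taken under that limit are given below for some lists only.

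In portal spots, 3756 of 12747 genes tested changed at 24 h, 1539 at 36 h and 2085 at 48 h against 0 h (edgeR's quasi-likelihood test, Benjamini-Hochberg adjusted p under 0.05, two-sided). At 24 h, 16.3% of the genes were higher and 13.2% lower, at 36 h 6.63% and 5.44%, and at 48 h 9.19% and 7.17%. The 48 h sections against the 24 h sections, a comparison added after the data were seen, gave 2700 changed genes, 9.99% higher and 11.2% lower. Of the called genes, 876 rose and 733 fell at least 2-fold at 24 h, 458 and 176 at 36 h, and 660 and 232 at 48 h.

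These counts rested on few sections. They were 2096 and 2286 at 24 h without section A or B, and 743 at 36 h without section B. Without any of the 0 h sections the 36 h count was 590 to 753. They were 874 to 1165 at 48 h without any of the 0 h sections and 1339 without section C. In the spots low in other cells they were 3604, 1605 and 1632. The split between rises and falls depended on the scaling: 55.2%, 54.9% and 56.2% of the calls were rises after TMM scaling and 72.6%, 90.0% and 92.1% after scaling by total UMIs. The latter put the median log2 change of all genes at 0.20, 0.30 and 0.32 in place of 0.04, 0.05 and 0.04. Changes are reported on the TMM scale, relative to that shift. The call of a named gene is given below without remark only where it remained with each section left out in turn and under every other setting tried in that comparison. For 48 h against 24 h, fits of injured sections only, with or without a block of section letters, were not counted for this.

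Genes of the urea cycle, which turns ammonia into urea in periportal hepatocytes, fell at 24 h and gave few calls later. At 24 h, 5 of the 8 fell and none rose, with a median log2 change of -1.15, and the same list held 1 higher and 1 lower member at 36 h (median 0.07) and 1 lower at 48 h (median 0.11). The rise at 36 h was lost without 36 h section B and became 2 without section A. The fall at 48 h was lost without any of the 0 h sections or 48 h section C and became 2 without either 36 h section. A rise at 48 h was added without 36 h section B or 48 h section D. Cps1, the first enzyme of the cycle, read 1958, 2117 and 1874 CPM at 0 h, 756 and 680 at 24 h, 1583 and 2272 at 36 h, and 2712, 3171, 2856 and 1999 at 48 h. Both 24 h sections lay below every other section, and 3 of the 4 at 48 h lay above all 0 h sections. Its log2 change was -1.47 (SE 0.20, adjusted p = 0.000286) at 24 h. At 36 h it was -0.04 (SE 0.19, adjusted p = 0.912), and at 48 h 0.44 (SE 0.16, adjusted p = 0.0848). From 24 h to 48 h Cps1 rose (1.90, adjusted p = 0.000176).

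Ass1, which joins citrulline to aspartate, fell from 1111, 1275 and 843 CPM at 0 h to 255 and 241 at 24 h, and read 925 and 1613 at 36 h and 802 to 1454 at 48 h. The change was -2.12 (SE 0.30, adjusted p = 0.000516) at 24 h, and the 48 h level was 2.13 above the 24 h level on the log2 scale (adjusted p = 0.00106). Otc, which makes citrulline, read 485, 455 and 480 CPM at 0 h, 157 and 132 at 24 h, 324 and 254 at 36 h, and 315, 400, 345 and 369 at 48 h. All 8 injured sections lay below 0 h. Its log2 change was -1.71 at 24 h (SE 0.16, adjusted p = 3.1e-05). At 36 h it was -0.71 (adjusted p = 0.0118, or 0.0776 without 36 h section B and 0.0665 with total-count scaling). At 48 h it was -0.41 (adjusted p = 0.0375, or 0.494 with total-count scaling). The 48 h call of Otc also ended without 0 h section 2, 3 or 4 (adjusted p = 0.12, 0.0917 and 0.107) or 48 h section A or C (adjusted p = 0.0682 and 0.0727), and in the spots low in other cells (adjusted p = 0.0724).

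Amino acid breakdown moved likewise. Of 17 genes, 13 fell and none rose at 24 h (median -1.15), 3 fell at 36 h (1 without 0 h section 2 or 4, 0 without section 3) and 2 at 48 h (1 without 0 h section 2 or 4 or 48 h section C, 0 without 0 h section 3). Without 36 h section A, 2 rose and 1 fell at 36 h. Without 48 h section D, 1 rose at 36 h and 1 at 48 h. Between 24 h and 48 h, 12 were higher at the later time (median 0.94, or 5 genes without 24 h section A). The medians at 36 h and 48 h, -0.09 and -0.20, became 0.14 and 0.08 with total-count scaling. Hpd, an enzyme of tyrosine breakdown, read 1117, 1151 and 982 CPM at 0 h, 359 and 485 at 24 h, 1045 and 1879 at 36 h, and 1164, 1058, 1303 and 811 at 48 h. Only at 24 h did all sections lie outside the 0 h range, with a log2 change of -1.36 (SE 0.26, adjusted p = 0.00253). Hgd, which opens the ring of homogentisate on the same path, fell from 483, 541 and 507 CPM to 246 and 174 at 24 h (-1.28, SE 0.16, adjusted p = 0.000123). From 24 h to 48 h it rose by 1.13 log2 units (adjusted p = 0.000606). Agxt, which clears glyoxylate, fell from 511, 541 and 602 CPM to 267 and 281 at 24 h (-1.01, SE 0.18, adjusted p = 0.00151).

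Glucose production genes gave fewer calls, with 2 of 9 lower at 24 h, 1 higher at 36 h, and 1 higher and 3 lower at 48 h (0 and 1 without 0 h section 2 or 3). The 24 h falls became 1 without any of the 0 h sections, 24 h section B or 48 h section B or C. The rise at 36 h was lost without any of the 0 h sections or 36 h section B. The rise at 48 h was also lost without 0 h section 4, 24 h section A or 48 h section A, B or C, and the falls there became 0 with total-count scaling. Fbp1, an enzyme on the path to glucose, read 1165, 991 and 878 CPM at 0 h, 405 and 296 at 24 h, 728 and 745 at 36 h, and 517, 561, 601 and 790 at 48 h. All injured sections lay below the lowest 0 h section. The log2 change was -1.53 (SE 0.20, adjusted p = 0.00023) at 24 h. At 48 h it was -0.71 (SE 0.16, adjusted p = 0.0108), and this call ended without 0 h section 2 (adjusted p = 0.0629) and with total-count scaling (adjusted p = 0.067). Gpt, alanine transaminase, was 1.47 log2 units higher at 48 h than at 24 h (SE 0.27, adjusted p = 0.0041), at 500, 422, 451 and 218 CPM against 147 and 140.

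Genes known as pericentral, which portal spots held at a low level before injury, fell further. Of 14 tested, 9 fell and 1 rose at 24 h (median -1.59), 8 fell at 36 h (median -1.11) and 6 fell and 1 rose at 48 h (median -0.54). The rise at 24 h was lost without 0 h section 3 or 4 or 24 h section A, and with 4 other choices of portal spots. The 36 h count was 5 without 0 h section 2 and 4 without 0 h section 3 or 36 h section B. Cyp2e1, the main enzyme that activates APAP, read 961, 872 and 642 CPM at 0 h, 153 and 82.1 at 24 h, 261 and 368 at 36 h, and 252, 219, 234 and 195 at 48 h. No injured section reached the lowest 0 h section. Its log2 changes at 24 h, 36 h and 48 h were -2.81 (SE 0.29), -1.39 (SE 0.27) and -1.87 (SE 0.21), with adjusted p = 6.8e-05, 0.00908 and 0.000422.

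Oat, ornithine aminotransferase, read 94.8, 92.1 and 71.6 CPM at 0 h and 11.4 to 21.9 CPM in all injured sections, with log2 changes of -2.57, -2.32 and -2.37 (adjusted p = 9.1e-05, 0.0011 and 0.000111). Slc1a2, a glutamate transporter, read 14.0, 12.2 and 10.9 CPM at 0 h and at most 1.28 CPM in any injured section. At 24 h it rested on 1 UMI in the portal spots of both sections, a ratio to 0 h of 0.00537 (counting interval 0.000136 to 0.0301). Its log2 changes at 36 h and 48 h were -4.57 (SE 0.52) and -3.93 (SE 0.33), with adjusted p = 0.000742 and 4.4e-05. Slco1b2, a bile acid and drug uptake carrier, fell from 345, 339 and 283 CPM to 121 and 114 at 24 h (-1.46, SE 0.14, adjusted p = 3.6e-05). At 48 h it read 324, 349, 386 and 346 CPM, 1.58 log2 units above 24 h (adjusted p = 9.8e-05).

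The plot of 12 genes sets these courses beside those of the stress, hormone, clock and cell cycle genes described below.

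**Figure D3:**
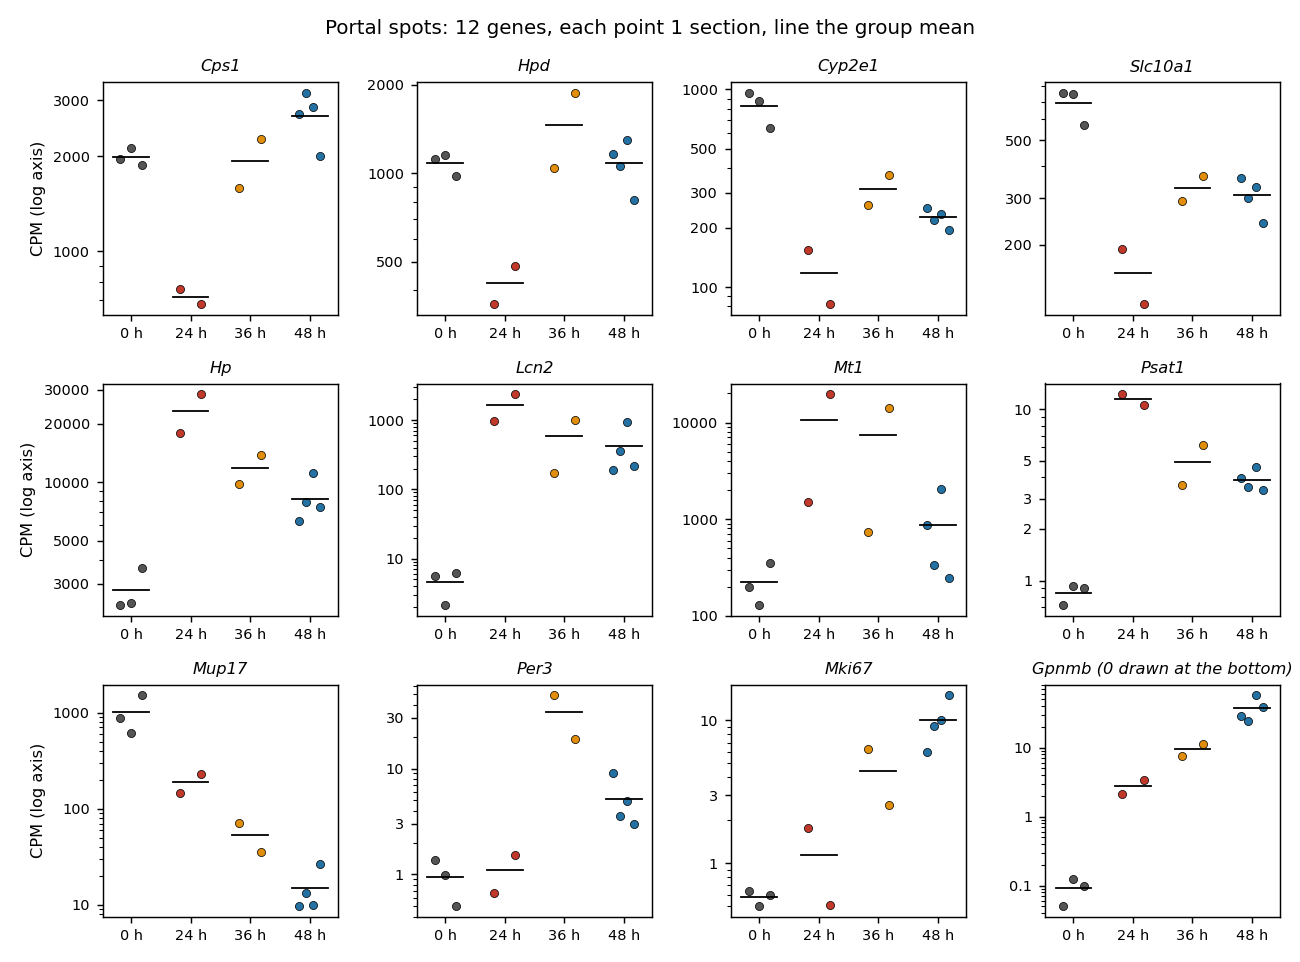
Level of 12 genes in portal spots, in CPM on a log axis, at 0 h, 24 h, 36 h and 48 h, each point 1 section and each line the group mean. Cps1 and Hpd lay lowest at 24 h and overlapped with 0 h at 36 h. Cyp2e1 and Slc10a1 stayed below their 0 h sections throughout, Mup17 was lowest at 48 h, Per3 was highest at 36 h, and Mki67 and Gpnmb were highest at 48 h.

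Plasma proteins of the acute phase response, which hepatocytes secrete during inflammation, rose in portal spots. Of 22 genes, 16 rose at 24 h (median log2 change 1.73), 10 at 36 h (median 1.17) and 8 at 48 h (median 0.89), and none fell. Without 0 h section 2 or 36 h section B the 36 h count was 5, and without 0 h section 3 it was 6. Without 0 h section 2 or 3 or 48 h section C the 48 h count was 5, and with total-count scaling it was 16. Hp, haptoglobin, which binds free haemoglobin, read 2331, 2389 and 3602 CPM at 0 h, 17966 and 28520 at 24 h, 9763 and 13880 at 36 h, and 6353, 7879, 11235 and 7457 at 48 h. Every injured section lay above every 0 h section, with log2 changes of 3.07 (SE 0.29, adjusted p = 6e-05), 2.09 (SE 0.29, adjusted p = 0.0026) and 1.57 (SE 0.25, adjusted p = 0.00286). For Hp, 48 h lay below 24 h (-1.50, adjusted p = 0.00327).

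Lcn2, which withholds iron from bacteria, rose from 5.59, 2.12 and 6.1 CPM to 962 and 2382 at 24 h, 173 and 1002 at 36 h, and 187, 353, 925 and 215 at 48 h. Its log2 change was 8.53 (SE 1.22, adjusted p = 0.00215), 7.02 (SE 1.16, adjusted p = 0.012) and 6.54 (SE 1.10, adjusted p = 0.00845). Itih3, an inter-alpha-trypsin inhibitor chain, rose at all 3 times, by 2.59, 1.77 and 1.49 on the log2 scale (adjusted p = 4.1e-05, 0.00195 and 0.00118).

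Fgb, fibrinogen beta chain, was called at 24 h alone. It rose from 5888, 6968 and 8044 CPM to 18028 and 22975 (1.56, SE 0.19, adjusted p = 0.000126). Values of 5346 and 5572 at 36 h and 6164 to 9662 at 48 h overlapped with or lay below 0 h. Trf, transferrin, rose from 9706, 8962 and 10618 to 15835 and 20135 CPM at 24 h (0.88, adjusted p = 0.00147). Ttr, transthyretin, fell from 22282, 21428 and 19581 to 11304 and 11599 CPM (-0.88, adjusted p = 0.000628). Plasma protein transcripts thus moved in both directions at 24 h. Of 13 hepatocyte identity genes, 1 rose and 2 fell at 24 h (median -0.0093), near the shares of all genes, 16.3% higher and 13.2% lower.

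Among the largest rises at 24 h were genes of proteolysis and inflammation. Timp1, a metalloproteinase inhibitor, went from at most 0.2 CPM to 12 and 15.5 at 24 h, 5.68 and 14.7 at 36 h and 5.35 to 13.4 at 48 h. The log2 changes were 6.14, 5.72 and 5.49 (adjusted p = 7.5e-05, 0.00108 and 0.000353). Cxcl1, a neutrophil attractant, went from 2.08, 1.31 and 1.7 CPM to 63.9 and 159 at 24 h and 44.9, 61.5, 38.4 and 9.77 at 48 h (6.04 and 4.51, adjusted p = 0.00145 and 0.00758). Sprr1a, a small proline-rich protein, had 0 UMIs in the 0 h portal spots and 724, 326 and 1389 UMIs at 24 h, 36 h and 48 h. It was at least 621-fold, 304-fold and 369-fold higher against a floor of 3 counts over the 0 h group. Without either 24 h section the calls of Sprr1a at 24 h and 48 h were lost (adjusted p up to 0.0693). The 48 h call was also lost without any 0 h section, either 36 h section or 48 h section A, B or C (adjusted p up to 0.0875), and when only the groups compared were fitted (adjusted p = 0.0973).

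Metallothioneins, small proteins that bind zinc and copper, rose at 24 h with a wide gap between sections. Mt1 read 200.1, 128 and 348 CPM at 0 h, 1512 and 19711 at 24 h, 727 and 14251 at 36 h, and 870.4, 337, 2025 and 248 at 48 h. Section B stood far above section A at both 24 h and 36 h, and 48 h overlapped with 0 h. The log2 change of Mt1 was 5.56 (SE 1.64, adjusted p = 0.0393) at 24 h and 5.05 (adjusted p = 0.0821) at 36 h, and that of Mt2 was 6.36 (SE 1.78, adjusted p = 0.0326) at 24 h. Both calls were lost without 24 h section B (adjusted p = 0.274 and 0.192), without any of the 0 h sections (adjusted p from 0.0713 to 0.112) and when only the groups compared were fitted (adjusted p = 0.0683 and 0.0556). That of Mt1 was also lost without 48 h section A (adjusted p = 0.055), with no filter (adjusted p = 0.0597) and in the top 10% of spots (adjusted p = 0.0507). The Mt1 and Mt2 promoters are shown because the metal response element, bound by the zinc-sensing factor MTF1, sits in them. The windows are 300 bases long and span the RefSeq start (GRCm38.p6), Mt1 at chr8:94178839-94179138 and Mt2 at chr8:94172368-94172667, both on the plus strand, and capitals mark matches to TGCACNC or TGCGCNC on either strand.
Mt1: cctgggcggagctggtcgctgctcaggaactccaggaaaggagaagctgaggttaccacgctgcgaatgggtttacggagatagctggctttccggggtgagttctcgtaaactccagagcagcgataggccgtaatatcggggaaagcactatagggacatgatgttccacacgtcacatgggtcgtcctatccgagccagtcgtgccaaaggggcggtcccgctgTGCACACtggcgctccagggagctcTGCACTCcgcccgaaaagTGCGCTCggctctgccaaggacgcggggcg
Mt2: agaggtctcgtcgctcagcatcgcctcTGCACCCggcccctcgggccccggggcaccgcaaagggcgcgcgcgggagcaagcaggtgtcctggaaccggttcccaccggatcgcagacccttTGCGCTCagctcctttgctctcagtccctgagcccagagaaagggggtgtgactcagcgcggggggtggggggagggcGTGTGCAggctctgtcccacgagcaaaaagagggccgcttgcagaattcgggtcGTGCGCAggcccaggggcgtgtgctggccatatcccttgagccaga
The script found 3 matches for Mt1 and 4 for Mt2, where 1.97% of 32851 promoter windows held at least 3 and 25.7% at least 1. A match is a description of the letters and not of binding.

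Genes of the integrated and endoplasmic reticulum stress responses rose at 24 h, 9 of 13 with none lower (median 1.62), and 2 rose and 1 fell at 36 h and at 48 h. The 24 h count was 3 without section A and 5 without section B or 0 h section 2 or 4. The rises at 36 h and 48 h became 1 without any of the 0 h sections. The fall at 36 h was lost without 0 h section 2 or 36 h section B, became 3 without 36 h section A and 2 without 48 h section D, and that at 48 h was lost without 0 h section 2. Psat1, an enzyme of serine synthesis, read 0.719, 0.935 and 0.9 CPM at 0 h, 12.3 and 10.6 at 24 h, 3.59 and 6.2 at 36 h, and 3.96, 3.53, 4.62 and 3.38 at 48 h. No injured section overlapped with 0 h, and the log2 changes were 3.73 (SE 0.28, adjusted p = 1.9e-05), 2.51 (SE 0.31, adjusted p = 0.00105) and 2.17 (SE 0.26, adjusted p = 0.000377). Ddit3, a transcription factor of the stress response, rose from 9.02, 15.2 and 10.2 to 145 and 71.0 CPM at 24 h (3.22, SE 0.45, adjusted p = 0.00112) and read 12.7 to 19.3 CPM at 48 h. Bhlha15, a transcription factor of secretory cells, rose from at most 1.25 to 32.6 and 18.7 CPM at 24 h (5.01, SE 0.70, adjusted p = 0.00098).

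Of 9 chaperones of the heat shock response, 3 were higher at 24 h (1 without 24 h section A or 0 h section 2 or 4, 1 with no filter). Of these Hspa1a alone was called under every setting. At 36 h 1 was lower, and at 48 h 2. Hspa1a is an inducible chaperone with a near-identical copy, Hspa1b, and reads may be shared between them. It read 1.2, 6.42 and 2.2 CPM at 0 h, 43.2 and 25.5 at 24 h, 2.24 and 0.423 at 36 h, and at most 0.968 at 48 h. The 24 h sections stood alone, 3.33 above 0 h on the log2 scale (SE 0.54, adjusted p = 0.00211), and 48 h lay below 24 h (-5.44, adjusted p = 0.000704).

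Of 9 p53 targets, 5 rose at 24 h (median 0.72), 1 at 36 h and 3 at 48 h, and the 24 h count was 3 without 0 h section 2 or 3 or either 24 h section. The 48 h count was 1 without 0 h section 2 or 4 or 48 h section B, C or D. It was also 1 in the spots low in other cells, and 6 with total-count scaling. The rise at 36 h was lost without any of the 0 h or 48 h sections, 24 h section A or 36 h section B, and became 2 without 36 h section A. A fall at 24 h was added without 24 h section B or either 36 h section. Aen, an apoptosis-enhancing nuclease, read 14.8, 18.5 and 16.5 CPM at 0 h, 58.7 and 46.0 at 24 h, 21.7 and 24.0 at 36 h and 20.3 to 24.0 at 48 h (24 h change 1.66, SE 0.14, adjusted p = 2.7e-05). Bax, which opens mitochondria in apoptosis, rose from 44.6, 44.0 and 46.3 to 78.5 and 86.0 CPM at 24 h (0.87, adjusted p = 0.00137). Mdm2, which degrades p53, rose from 19.2, 20.6 and 19.6 to 29.0 and 35.2 CPM (0.69, adjusted p = 0.00286). Phlda3, a brake on AKT signalling, was called at 48 h, at 4.89, 4.21, 8.86 and 5.18 CPM against 1.36, 1.62 and 2.2 (1.77, SE 0.34, adjusted p = 0.00483).

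Targets of NRF2, the factor of the antioxidant response, split, with 2 of 17 higher and 5 lower at 24 h, 1 of each at 36 h, and 3 of each at 48 h. The 5 falls at 24 h became 3 without any of the 0 h sections or section A and 2 without section B, and the 3 falls at 48 h became 1 without 0 h section 2 or 3. At 36 h the rise was lost without any of the 0 h sections or section B and became 3 without 48 h section D, and the fall was lost without 0 h section 2 or 3 or 48 h section A and became 2 without 36 h section A. The rises at 48 h became 6 without section D, and with total-count scaling the rises were 4, 3 and 7. Hmox1, which degrades haem, rose from 9.98, 12.9 and 9.0 CPM to 34.0 and 42.0 at 24 h (1.82, SE 0.20, adjusted p = 6.8e-05) and 24.8, 28.7, 25.5 and 17.8 at 48 h (1.17, SE 0.17, adjusted p = 0.0012). Me1, malic enzyme, fell from 172, 191 and 123 CPM to 49.7, 29.9, 37.5 and 62.7 at 48 h (-1.85, SE 0.37, adjusted p = 0.0116). Ribosome biogenesis genes rose at 24 h, 10 of 12 with a median of 0.85 (5 without section A), against 2 at 36 h and 1 at 48 h. Nop56, of the nucleolar particle that modifies ribosomal RNA, rose from 14.6, 19.4 and 17.5 CPM to 45.5 and 36.7 (1.26, adjusted p = 0.000353). Polr1a, the catalytic subunit of RNA polymerase I, rose at all 3 times, by 1.14, 1.24 and 0.93 (adjusted p = 0.00132, 0.00367 and 0.00372).

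Growth hormone dependent genes of male mouse liver fell, 9 of 11 at 24 h, 6 at 36 h and 6 at 48 h, with medians of -2.07, -2.22 and -1.48. The counts were 3 and 2 at 24 h without section A or B, and 1 at 36 h without any of the 0 h sections and 2 without section B. At 48 h the count was 3 without any of the 0 h sections, 24 h section B or 48 h section A, B or C. With total-count scaling 3 fell at 36 h and 3 at 48 h. In the spots low in other cells 4 fell at 36 h and 4 at 48 h. Major urinary proteins and Cyp4a12a and Cyp4a12b have near-identical copies, so their single-gene values are uncertain. Mup17, a major urinary protein, read 886, 617 and 1516 CPM at 0 h, 147 and 229.6 at 24 h, 71.7 and 35.0 at 36 h, and 9.63, 13.3, 9.9 and 26.8 at 48 h. Each later group lay below the group before it, and the log2 change at 48 h was -6.07 (SE 0.54, adjusted p = 0.000522). Cyp4a12b, a male-biased fatty acid hydroxylase, read 34.6, 40.3 and 39.4 CPM at 0 h and at most 3.91 in any injured section, with log2 changes of -5.34, -4.32 and -4.05 (adjusted p = 0.00196, 0.0102 and 0.00171). Ghr, the growth hormone receptor, fell from 232, 232 and 228 to 78.2 and 50.6 CPM at 24 h (-1.84, SE 0.20, adjusted p = 5.4e-05). It read 128 to 172 CPM at 48 h, 1.16 log2 units above 24 h (adjusted p = 0.00142).

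Bile acid genes fell at 24 h, 8 of 14 with a median of -1.48 (5 without section B). The list was mixed at 48 h, with 2 higher (0 without 0 h section 3 or 4, 1 without either 24 h section or 48 h section A, B or C), 3 lower and a median of -0.04 that became 0.25 with total-count scaling. Slc10a1, the uptake carrier for bile acids, read 755, 751 and 569.8 CPM at 0 h, 193 and 119 at 24 h, 293 and 365 at 36 h, and 359.65, 302, 333 and 242 at 48 h. No injured section reached 0 h. Its log2 changes at 24 h and 48 h were -2.15 (SE 0.24) and -1.16 (SE 0.18), with adjusted p = 7.9e-05 and 0.00174. Nr1i3, the xenobiotic receptor CAR, rose instead, from 50.7, 56.3 and 44.1 CPM to 162 and 211 at 36 h (1.89, SE 0.25, adjusted p = 0.00195) and 187, 132, 172 and 90.8 at 48 h (1.53, SE 0.22, adjusted p = 0.00143).

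Lipid synthesis genes gave more called falls at 48 h than before, and fatty acid oxidation genes fell at 24 h already. The synthesis list summed to 11149 to 13837 CPM at 0 h and was lower in every injured section. It read 5945 and 1809 CPM at 24 h, 6671 and 1308 at 36 h, and 1506 to 2402 at 48 h. Of 16 genes of cholesterol and fatty acid synthesis, 1 fell at 24 h, 2 at 36 h and 7 at 48 h (median -1.41), and the 48 h count was 12 without either 36 h section. The fall at 24 h was lost without 0 h section 2 or 4, 24 h section B, either 36 h section or 48 h section C or D. The 36 h count was 1 without 0 h section 2 or 4 or 36 h section B and 0 without 36 h section A. Cyp51, an enzyme of sterol synthesis, read 135, 126.9 and 159 CPM at 0 h, 162 and 119 at 24 h, 67.2 and 91.1 at 36 h, and 62.6, 37.9, 47.9 and 69.6 at 48 h (48 h change -1.36, SE 0.20, adjusted p = 0.00153). Hmgcs1, which acts earlier on that path, fell at 48 h by 1.79 log2 units (adjusted p = 0.00425). Of 14 fatty acid oxidation genes, 7 fell at 24 h, 2 at 36 h and 6 at 48 h (medians -0.75, -0.37 and -0.63). Cpt2, which brings fatty acids into mitochondrial oxidation, read 141, 149 and 159 CPM at 0 h, 95.5 and 88.7 at 24 h and 74.2 to 106 CPM at 48 h (-0.70 and -0.66, adjusted p = 0.00428 and 0.00413). The 24 h count was 4 without section A or B, the 36 h count was 1 without 0 h section 2 and 0 without 0 h section 3 or 4 or 36 h section B, and the 48 h count was 3 with total-count scaling.

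Cell cycle genes rose late. Of 9 G1 genes, 2 rose at 24 h, 2 at 36 h and 6 at 48 h (3 without 0 h section 3, 4 in the spots low in other cells). Of 16 DNA replication genes, 5 rose at 24 h (1 without section A, 3 without 0 h section 2 or 3), 7 at 36 h (4 without section B) and 13 at 48 h. Their medians were 0.67, 1 and 1.55. Of 16 mitosis genes, 0 were called at 24 h, 4 at 36 h (2 without 0 h section 2 or 3 or 36 h section B, 0 without 36 h section A) and 16 at 48 h. Their medians were 0.57, 1.95 and 4.15, and 14 rose at 48 h in the spots low in other cells (median 3.90). With all sections, none of these lists had a lower member at any time.

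Ccne1, the cyclin of S phase entry, rose at all 3 times, from 0.319, 0.436 and 0.6 CPM at 0 h to 2.54 and 2.87 at 24 h, 2.54 and 2.26 at 36 h and 2.33 to 4.17 at 48 h. The log2 changes were 2.57, 2.41 and 2.91 (adjusted p = 0.000526, 0.00432 and 0.000228). Mcm6, of the replicative helicase, read 2.63, 3.24 and 4.2 CPM at 0 h, 10.0 and 5.56 at 24 h, 10.3 and 12.7 at 36 h, and 12.3, 23.7, 21.3 and 24.1 at 48 h. Its rise was 2.61 (SE 0.28, adjusted p = 0.000347) at 48 h. At 24 h the call of Mcm6 was lost without section A (adjusted p = 0.286) or 0 h section 2 or 3, and at 36 h without section B (adjusted p = 0.0626).

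Mki67, a marker of cycling cells, read 0.639, 0.499 and 0.6 CPM at 0 h, 1.77 and 0.506 at 24 h, 6.28 and 2.54 at 36 h, and 5.98, 9.21, 10.1 and 15.0 at 48 h. Sections at 24 h overlapped with 0 h and those at 48 h did not, at a log2 change of 4.11 (SE 0.47, adjusted p = 0.000432). Cdk1, the kinase of mitotic entry, rose from 1.36, 1.81 and 1.2 to 6.21, 16.9, 14.0 and 23.4 CPM at 48 h (3.33, SE 0.45, adjusted p = 0.00138). Birc5, survivin, rose from 0.479, 0.499 and 1.0 to 6.75, 18.4, 14.4 and 20.4 CPM (4.55, SE 0.45, adjusted p = 0.000228). Section A was the lowest of the 48 h sections for each of these 3 genes.

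Cytoskeletal and annexin genes rose in 12 of 21 cases at 24 h, 8 at 36 h (with 2 lower) and 11 at 48 h, with medians of 1.06, 0.74 and 0.73. The counts were 6 at 24 h without section A, 0 to 2 at 36 h without any of the 0 h sections or section B, and 7 at 48 h without 0 h section 3. Krt18, a keratin of hepatocytes, rose from 234, 250.3 and 294 to 920.4 and 739.5 CPM at 24 h (1.68, SE 0.28, adjusted p = 0.00144). Actb, beta actin, rose from 539, 513 and 666 to 984 and 1011 CPM at 24 h (0.80, adjusted p = 0.00139), and read 614 to 660 CPM at 48 h. Tpm1, a tropomyosin in the study's human migratory hepatocyte signature, rose from 25.5, 22.7 and 25.9 CPM to 80.8 and 73.3 at 24 h, 42.8 and 62.0 at 36 h, and 53.9 to 61.7 at 48 h. The log2 changes were 1.64, 1.09 and 1.19 (adjusted p = 3.1e-05, 0.00195 and 0.000228). Of 18 members of that signature tested, 5 rose and 1 fell at 24 h, 3 rose at 36 h and 4 rose and 1 fell at 48 h. The 24 h rises were 3 without section B, and the 36 h rises were 1 without any of the 0 h sections or section B.

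Anxa2, annexin A2, rose at 48 h from 11.3, 12 and 13.6 to 101, 58.7, 118 and 50.6 CPM (2.74, SE 0.49, adjusted p = 0.00823). Anxa2 was not called at 24 h. It was called higher at 36 h too, a call lost without any of the 0 h sections or 36 h section B. S100a6, a calcium-binding protein, rose at 48 h from 6.15, 5.36 and 4.6 to 148, 119, 185 and 59.7 CPM (4.57, SE 0.71, adjusted p = 0.00563). Ly6d, a surface protein, rose at all 3 times, from at most 1.68 CPM to 13.0 and 15.7, 17.2 and 71.5, and 54.3 to 102 CPM (3.30, 4.93 and 5.55, adjusted p = 0.00688, 0.00396 and 0.000966). These genes are also made by other cells whose markers moved with injury, and that part was not tested.

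Circadian clock genes changed at 36 h, when 7 of 15 rose and 3 fell (median 0.81), against 1 and 3 at 24 h (0 and 1 without 24 h section B) and 1 and 0 at 48 h. The rise at 24 h was also lost without 0 h section 2 or 3 or any 48 h section. That at 48 h was lost without any of the 0 h sections or 48 h section C and became 2 without section D, and 1 gene fell at 48 h without section B. The labels give no time of day, so time after injury and time of day cannot be told apart. Per3, a period gene, read 1.36, 0.997 and 0.5 CPM at 0 h, 0.662 and 1.52 at 24 h, 49.2 and 19.0 at 36 h, and 9.08, 3.53, 4.91 and 3.0 at 48 h. Both 36 h sections lay above every other section (5.10, SE 0.60, adjusted p = 0.00217). Ciart, a clock repressor, read at most 0.337 CPM at 0 h and 24 h, 4.34 and 25.4 at 36 h, and 0.225 to 2.02 at 48 h (36 h change 6.26, SE 0.98, adjusted p = 0.00589).

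Dbp and Tef, factors that bind D-boxes, rose at 36 h to 58.9 and 33.6 and to 143 and 111 CPM from at most 8.46 and 23.8 (2.95 and 2.74, adjusted p = 0.00396 and 0.008). Usp2, a deubiquitinase under clock control, rose to 34.3 and 60.2 CPM from at most 2.4 (4.65, SE 0.69, adjusted p = 0.00647). The activators moved the other way at that time. Arntl fell from 13.0, 13.0 and 17.7 to 4.49 and 2.82 CPM (-1.99, adjusted p = 0.00161). Npas2 was at 2 UMIs in the 36 h portal spots against 167 at 0 h, a ratio of 0.0335 (counting interval 0.00403 to 0.123).

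The promoters of Per3 and Ciart, among the 10 largest rises at 36 h, are shown as they hold clock motifs, and were chosen for that after the search. Per3 (chr4:151044616-151044915) and Ciart (chr3:95882179-95882478) both lie on the minus strand of GRCm38.p6, in the same RefSeq windows as above. Capitals mark the D-box (TTACGTAA or TTATGTAA) in Per3 and the E-box (CACGTG) in Ciart, searched on both strands.
Per3: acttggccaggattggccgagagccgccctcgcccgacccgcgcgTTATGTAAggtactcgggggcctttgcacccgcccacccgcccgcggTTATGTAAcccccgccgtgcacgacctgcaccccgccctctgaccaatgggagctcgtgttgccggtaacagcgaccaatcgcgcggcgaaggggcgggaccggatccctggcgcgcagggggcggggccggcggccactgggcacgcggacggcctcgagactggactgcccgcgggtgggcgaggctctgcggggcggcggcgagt
Ciart: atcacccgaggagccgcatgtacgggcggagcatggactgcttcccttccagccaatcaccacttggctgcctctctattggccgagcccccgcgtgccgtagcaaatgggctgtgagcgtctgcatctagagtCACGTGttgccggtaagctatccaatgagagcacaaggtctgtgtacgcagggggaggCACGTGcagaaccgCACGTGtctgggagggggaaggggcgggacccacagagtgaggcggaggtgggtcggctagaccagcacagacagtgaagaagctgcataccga
Per3 held 2 D-boxes, as did at least that many in 0.0244% of all windows, and Ciart held 3 E-boxes, found in 0.0883%. At least 1 D-box was found in 1.06% and at least 1 E-box in 7.15% of windows. Of the other clock genes searched, Per1 (in 1 of its 2 windows) and Tef (in both) held 1 E-box, and Dbp, Nr1d1, Nr1d2, Arntl and Npas2 held neither motif. The metal response letters shown for Mt1 and Mt2 also matched 3 times in Per3 and 4 times in Dbp.

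Markers of other cell types were measured in the same portal sums. Gpnmb, of macrophages that take up debris, was at 3 UMIs in all 0 h portal spots and at 2.1 and 3.37 CPM at 24 h, 7.48 and 11.3 at 36 h, and 28.5, 24.3, 57.3 and 38.3 at 48 h. Summed counts gave ratios to 0 h of 33.4 (counting interval 10.6 to 169), 121 (40.6 to 596) and 494 (169 to 2397). Trem2, a receptor of such macrophages, rose from 0.878, 1.12 and 0.6 CPM to 14.9, 12.6, 25 and 14.9 at 48 h (4.22, adjusted p = 6e-05). The summed level of the 9 macrophage genes, with Clec4f and Lyz2 among them, was 630.2 to 725 CPM at 0 h and 486 to 941 in injured sections, so the groups overlapped. Of the 9 members, 3 rose at each time and 1 fell at 24 h. In the spots low in other cells, 3 still rose at each time and 2, 2 and 1 fell.

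Fibroblast markers rose late, 3 of 9 at 24 h, when 1 fell, 3 at 36 h (1 without 0 h section 2 or 3 or section B) and 7 at 48 h (4 without 0 h section 3). Col1a1 and Col3a1, fibrillar collagens, rose at 48 h from at most 2.8 and 18.8 CPM to 28.9, 30, 77.1 and 74.4 and to 74.1, 92.7, 165 and 200.4 CPM. The log2 changes were 4.59 and 2.94 (adjusted p = 0.00525 and 0.0041), with sections C and D highest. The list summed to 187 to 223 CPM at 0 h, 177 to 359 at 24 h and 36 h, and 356, 415, 663 and 646 at 48 h. All 4 neutrophil genes tested rose at 24 h and at 48 h (1 at 24 h without section B, 2 at 48 h without 0 h section 2 or 4). Their sum went from 2.17 to 5.87 CPM to 25.5 and 51.1 and to 16.0 to 48.3 CPM.

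Bile duct markers, which the portal tract holds, summed to 103 to 143 CPM at 0 h and to 135 to 389 in injured sections. Spp1 among them read 87.1 to 124 and 114 to 358 CPM, on the scale of single genes. Of 6 members tested, 2, 1 and 3 rose at 24 h, 36 h and 48 h, and without any of the 0 h sections 1, 0 and 1 did. The 24 h count was also 1 without 24 h section B, either 36 h section or 48 h section B or D, the 36 h count 0 without 36 h section A, and the 48 h count 1 without 48 h section C. Sox9, which bile duct cells and periportal hepatocytes next to them make, rose from 2.95, 2.68 and 3.0 CPM to 11.9 and 16.5 at 24 h (2.29, SE 0.24, adjusted p = 4.7e-05) and 8.23, 11.8, 9.31 and 7.36 at 48 h (1.66, adjusted p = 0.000453). The duct markers Epcam and Krt19, picked after their values were seen, were called at no time and read at most 3.95 CPM. Kdr, a receptor of sinusoidal endothelium, fell from 31.4, 38.2 and 33.9 CPM to 16.1 and 14.3 at 24 h (-1.18, SE 0.15, adjusted p = 0.000198). It was the only one of 7 endothelial genes called at 24 h (list median -0.19), and their sum was 190 to 218 CPM at 0 h and 149 to 260 in injured sections. Lymphocyte markers summed to 1.9 to 8.64 CPM, and haemoglobin genes stood at 778 CPM in 0 h section 3 and at 35.7 to 248 CPM elsewhere.

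**Figure D4:**
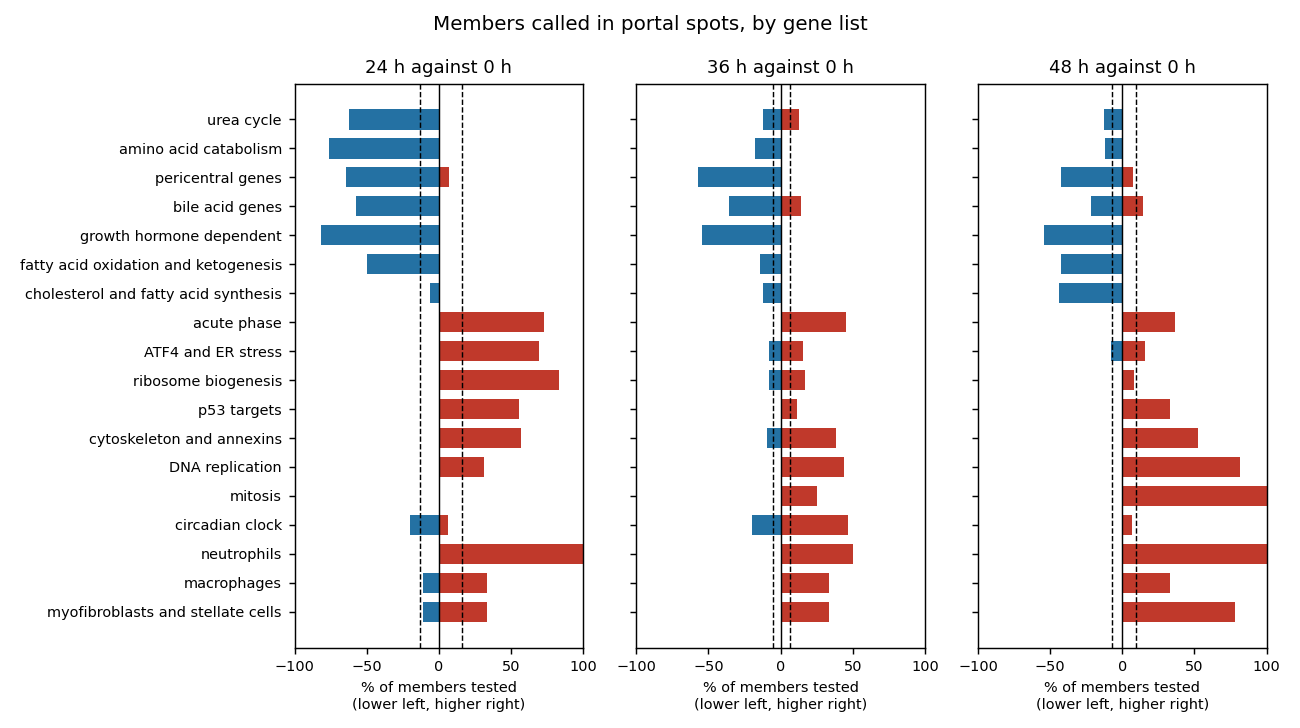
Percentage of the members tested that were called higher (right) or lower (left) in portal spots at 24 h, 36 h and 48 h against 0 h, for 18 gene lists. Dashed lines mark the share of all genes called in that direction, 16.3% and 13.2% at 24 h, 6.63% and 5.44% at 36 h, and 9.19% and 7.17% at 48 h. Acute phase genes sit to the right at each time, growth hormone dependent genes to the left, and mitosis genes move from 0 at 24 h to all 16 at 48 h.

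Portal spots were next set against the remaining spots of the same section, and the change of that ratio from 0 h was tested with the section as a block. The ratio can move through either set of spots, and the split itself was made on counts of these spots, so a gene that varies with the 4 genes between spots is not independent of it. Of 14196 genes, 4.95% had a higher and 3.3% a lower ratio at 24 h, 8% and 4.24% at 36 h, and 17.2% and 12.5% at 48 h. At 24 h the count of 1172 was 309 without 24 h section B and 692 to 699 without any of the 0 h sections. The 36 h count of 1737 was 568 without 36 h section B and 1152 without 0 h section 2. Rises were 60.0%, 65.3% and 57.9% of the calls after TMM scaling and 8.97%, 15.8% and 18% after scaling by total UMIs. The latter put the median ratio change at -0.17, -0.17 and -0.23 in place of 0.02, 0.03 and 0.01.

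The pericentral genes moved towards equal levels in both sets of spots. Their summed level in portal spots was 0.364 to 0.389 times that in the remaining spots at 0 h, 0.571 and 0.641 times at 24 h, 0.65 and 0.884 at 36 h, and 0.637 to 0.906 at 48 h, with no overlap with 0 h. Of 14 genes, 5, 9 and 11 had a higher ratio and none a lower one, and the first counts were 2 without 24 h section B and 5 without 36 h section B. Glul, glutamine synthetase, the classical gene of the cells next to the central vein, had log2 ratios of -1.70, -1.51 and -1.66 at 0 h, -0.21 and -0.75 at 24 h, 0.04 and -0.28 at 36 h, and -0.70 to -0.41 at 48 h. The change was 1.25 (SE 0.14, adjusted p = 3.4e-07), 1.46 (SE 0.12, adjusted p = 2.7e-09) and 1.02 (SE 0.10, adjusted p = 1.6e-09). Its mean level in the remaining spots fell from 283 to 20.6, 31.5 and 18.6 CPM, further than the 91.8 to 15.7, 27.9 and 12.3 CPM in portal spots.

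Gstm2, a glutathione transferase, moved likewise, from log2 ratios of -1.25, -1.18 and -1.21 to -0.11 and -0.14 at 24 h (change 1.11, SE 0.11, adjusted p = 1.6e-08). Cyp4a10, a fatty acid hydroxylase, changed late: the ratio was -1.24, -1.31 and -0.85 at 0 h, -1.02 and -1.04 at 24 h, and 0.02 to 0.45 at 48 h (change 1.55, SE 0.10, adjusted p = 2.7e-12). Cyp2e1 had a log2 ratio of -1.79 to -1.64 at 0 h and -1.67 and -1.54 at 24 h (change 0.09, SE 0.20, adjusted p = 0.86), with 48 h sections between -1.53 and -1.10 (change 0.40, adjusted p = 0.10).

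Among the largest falls in the ratio at 24 h were those of Atf3, Hspa1a, Psat1 and Acta2, and the lists that hold them were mixed. Of 13 genes of the integrated and endoplasmic reticulum stress responses, 3, 6 and 3 had a lower ratio at 24 h, 36 h and 48 h (2 at 36 h without 36 h section A, 8 at 48 h with total-count scaling) and 0, 0 and 1 a higher one. That list as a sum still read 1.18 and 1.21 times the remaining spots at 24 h, against 1.1 to 1.16 at 0 h. Of 9 heat shock genes, 6 had a lower ratio at 24 h and none at 36 h, and 2 were lower (0 without 0 h section 3, 1 without 48 h section A) and 2 higher (0 with total-count scaling) at 48 h. Atf3, a stress-induced transcription factor, had log2 ratios of 0.65, 0.51 and 1.05 at 0 h and between -1.77 and -1.25 in all injured sections. The changes at 24 h and 48 h were -2.08 (SE 0.17) and -2.24 (SE 0.16), with adjusted p = 2.5e-10 and 2.7e-12. Hspa1a had ratios of -2.02 and -2 at 24 h against -0.05 to 0.31 at 0 h (change -2.14, SE 0.19, adjusted p = 2.3e-09). Psat1 and Acta2, the actin of myofibroblasts, lay between -1.48 and -0.54 in the 24 h and 36 h sections against 0.18 to 1.24 at 0 h, with changes at 24 h of -1.66 and -1.71 (adjusted p = 0.0012 and 8.5e-05). Acta2 was the only one of 9 fibroblast genes with a lower ratio at 24 h, when 3 were higher, and at 36 h 2 were higher and 3 lower. At 36 h these became 1 higher without 0 h section 2 or 3 or either 36 h section, and 1 lower without section B and 5 without section A. At 48 h, 6 of the fibroblast genes were lower and 1 higher. Both Psat1 and Hspa1a thus rose in portal spots against 0 h while standing lower there than in the remaining spots.

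The cytoskeletal list had falling ratios, with 7, 15 and 20 of 21 lower in ratio at 24 h, 36 h and 48 h and none higher. The 24 h count was 11 without section A, 2 without section B and 4 without 0 h section 3, and the 36 h count was 7 without section B. DNA replication genes had a lower ratio at 48 h in 13 of 16 cases. The other cell cycle lists gave fewer calls there, with 2 of 9 G1 genes lower and 0 of 16 mitosis genes called (median -0.80). Macrophage genes summed to 0.899 to 1 times the remaining spots at 0 h and 0.411 to 0.485 times at 48 h, and fibroblast genes to 0.645 to 0.712 and 0.386 to 0.466 times. Bile duct markers were 2.05 to 3.78 times as high in portal spots at 0 h and 0.659 to 0.969 times at 48 h, where 1 of 6 members had a lower ratio and none a higher one (median -0.38). That member was Spp1, osteopontin, which gave most of the sum and which other cells make too, with a change of -1.96 (SE 0.27, adjusted p = 0.0011).

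Amino acid, urea cycle and acute phase genes shared a rise in ratio at 48 h with other hepatocyte lists. In that order, 15 of 17, 8 of 8 and 16 of 22 were higher and 1, 0 and 0 lower. With total-count scaling 12, 4 and 9 were higher. Of hepatocyte identity, bile acid and growth hormone dependent genes, 10 of 13, 13 of 14 and 10 of 11 were higher at 48 h and none lower. Of 16 cholesterol and fatty acid synthesis genes, 2 were higher and 5 lower. The summed ratio of hepatocyte identity genes was 1.15 to 1.17 at 0 h and 1.27 to 1.41 in injured sections. The summed ratio of acute phase genes was 1.14 to 1.19 at 0 h and 1.32 to 1.68 in injured sections, and that of urea cycle genes 1.17 to 1.24 and 1.31 to 1.78. Hp had log2 ratios of 0.15, 0.21 and 0.22 at 0 h, 0.57 and 0.68 at 24 h, and 0.49 to 0.80 at 48 h (change 0.43 and 0.40, adjusted p = 0.00063 and 2.1e-05). At 24 h the median ratio change of urea cycle genes, 0.13, became -0.07 with total-count scaling.

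**Figure D5:**
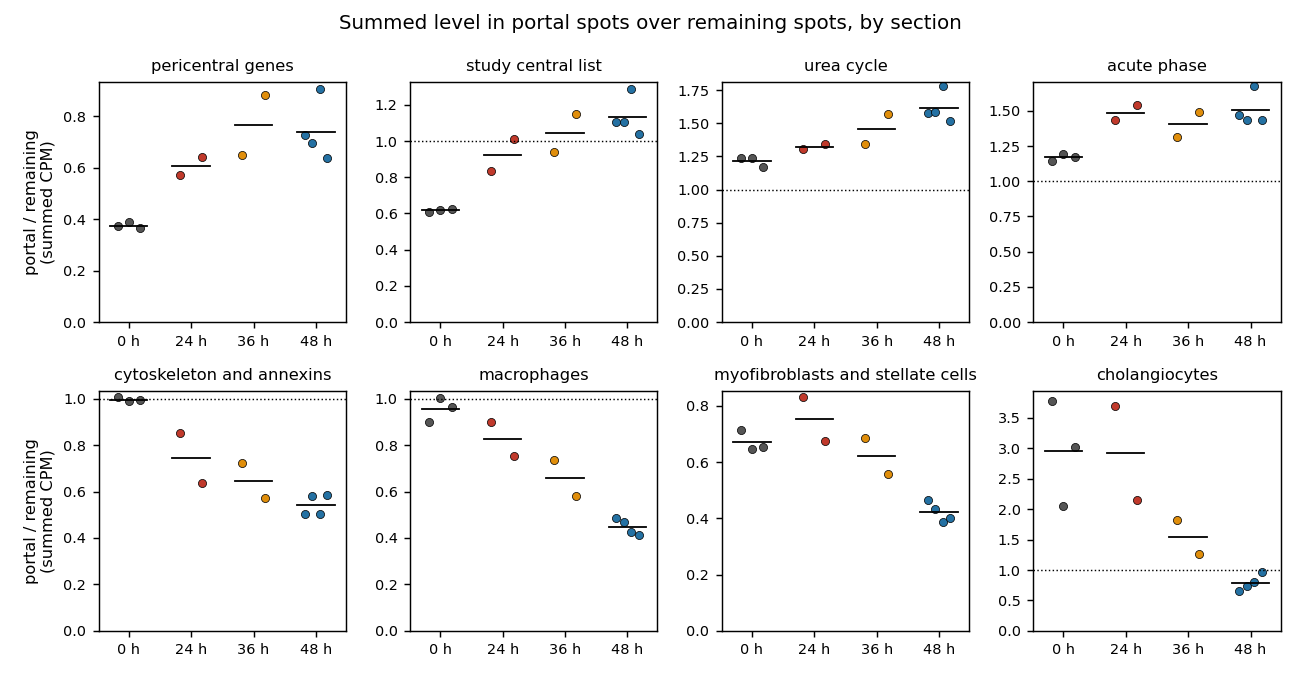
Summed CPM in portal spots divided by that in the remaining spots of the same section (linear axis from 0) for 8 gene lists, each point 1 section and the line the group mean. A dotted line marks equal levels in the panels whose axis reaches 1. Pericentral genes rose from at most 0.389 at 0 h towards 1. Cytoskeletal and macrophage genes went from 0.899 to 1.01 at 0 h to 0.411 to 0.585 at 48 h. Bile duct genes dropped from 2.05 or above at 0 h to below 1 by 48 h.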

How the data were processed

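The authors ran Space Ranger 1.0.0 on the mm10 genome with Ensembl annotation and deposited, per section, raw UMI counts for 31053 genes in the 4992 barcodes of the array, the same barcode set in every section, with spot positions. Their manual removal of isolated spots was not repeated. Spots were filtered and chosen as described, and counts were summed per section. Portal sums of the 11 sections were fitted together with edgeR 4.0.16 (TMM scaling, low-count filter, robust quasi-likelihood test, two-sided) in R 4.3.3, with Benjamini-Hochberg adjustment over all genes but the 4 that chose the spots. Portal and remaining sums were fitted jointly with the section as a block, and log2 ratios used a pseudocount of 0.5 CPM. The 10 largest rises and falls at 10 CPM or more, up to 4 called members per list with the highest levels, and the 8 largest ratio changes each way could be named. Members, lists and genes were chosen with earlier results of these data known. The test was tried on simulated counts (58 of 66 genes changed 4-fold were recovered in the portal fit at 24 h, 29 of 67 at 2-fold). False calls were 3.49% to 4.26% of the simulated calls in the portal fit and 6.36%, 8.88% and 8.65% in the ratio fit at 24 h, 36 h and 48 h, above the 5% aimed for. The simulation changed few genes, about equally up and down, and drew sums without choosing spots. These rates therefore do not cover errors from scaling or from the choice of spots. Intervals on counts cover counting error only. DESeq2 1.42.0, other scalings, filters and spot choices, and leaving out each section were alternatives.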

Additional observations from a re-analysis of the deposited data

Results flagged for a closer look

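Of 169 sets of 4 sections at 48 h examined, 7 held a section far from the other 3, and chance gives about 1 in 20. Section C was high for the acute phase ratio of portal to remaining spots, 1.68 against a lowest value of 1.43, and for Ly6d, 102 CPM against a lowest of 54.3. Section A was high for the summed level of the 4 selecting genes, 3305 CPM against a lowest of 2697. Section D was high for the neutrophil ratio, 0.41 against a lowest of 0.381. Section D was also high for Mup10, a major urinary protein, at 67.8 CPM against a lowest of 3.42, for Elovl3, a fatty acid elongase, at 68.8 CPM against a lowest of 7.45, and for Gm32468, at 0.376 CPM against 0 in the other sections.

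The change from 0 h differed between portal and remaining spots in 1172 of 14196 genes at 24 h, by the test of that difference in edgeR. The counts were 1737 at 36 h and 4214 at 48 h. The spots were split on their own counts, so a gene that varies with the selecting genes between spots is not independent of the split. How many calls came from the split itself was not tested. Rises were 60%, 65.3% and 57.9% of the calls after TMM scaling and 8.97%, 15.8% and 18% after scaling by total UMIs.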

How the results depend on the processing

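No direction was reversed under any setting tried for the genes named, which were picked among called genes for large changes or high levels. Among all 4214 genes with a called ratio change at 48 h, 255 had the opposite sign with total-count scaling. With each of 365 portal calls counted once per setting, 6782 kept their side of the threshold and 983 lost it. For 48 ratio calls counted in that way, 855 kept it and 105 lost it. At 24 h, 36 h and 48 h, 60 of 109, 30 of 89 and 52 of 105 portal calls were kept under every setting. For 48 h against 24 h, 19 of 62 were. Of 16 ratio calls at each time, 8, 6 and 12 were. Leaving out 1 section gave 2096 to 4177 portal calls at 24 h, 590 to 1630 at 36 h, 874 to 2561 at 48 h and 1074 to 3197 for 48 h against 24 h (1074 and 1359 without 24 h section A or B), and 309 to 1408, 568 to 1839 and 3298 to 4438 ratio calls. Total-count scaling gave 2647 portal calls at 36 h, 4076 at 48 h and 1861 ratio calls at 24 h. The ratio calls at 24 h were 1836 with only the groups compared and 625 in the top 10% of spots. Against the lowest 20% of spots in place of the remaining ones, ratio calls were 2298, 3146 and 6326. The cause was not tested. No paired analysis was possible because the 0 h sections are numbered and the injured ones lettered. Letters A and B recur at 24 h, 36 h and 48 h, and no source ties them to a shared animal or day. Deviations of same-lettered sections correlated across genes at r = -0.19 and -0.08 for 24 h with 48 h and at -0.0073 and -0.16 for 36 h with 48 h. For 24 h with 36 h, a pair of times not compared here, r was 0.20, a single value since deviations in a group of 2 mirror each other. The replicate block, in injured sections only, gave 557 calls for 48 h against 24 h. Of the named calls of that comparison, 28 were kept and 33 lost under the block. The same sections without the block gave 1924 calls, with 45 named calls kept and 16 lost. With 2 sections at 24 h and at 36 h, small changes were seldom detectable: of 67 simulated 1.5-fold changes, 3 were recovered in the portal fit at either time.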
